A study of Mus musculus with 6 samples.

Results

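Matrix proteoglycans and glycoproteins are the secreted proteins that fill the space between collagen fibres, and 10 of their genes were followed here: Vcan, Dcn, Bgn, Lum, Fmod, Ogn, Omd, Postn, Sparc and Fn1. They were chosen by name, and every probe set whose gene symbol in the platform annotation was exactly one of these was taken, which gave 29 of 45037 probe sets and 10 of 18193 genes. The cells were mesenchymal stem cells of the mouse, which can form fat, bone or cartilage. The irradiated group held 3 cultures that received broadband terahertz pulses of 35 fs for 12 h, centred near 10 THz, at a repetition rate of 1 kHz and 1 mW/cm2. The control group held 3 cultures of the same cells that stood beside them without irradiation. Both groups were at 26 to 27 °C, and both had been given rosiglitazone at 1 µM, insulin at 5 µg/ml, 3-isobutyl-1-methylxanthine (IBMX, which blocks the breakdown of cAMP) at 100 µM and dexamethasone at 1 µM again 48 h before, so both carried a fat cell forming mixture. Fetal bovine serum was listed at 5% for both groups. The cells were a commercial stock, and neither the mouse strain nor the age of the animals is stated in the sources used here. There were 3 independent experiments, each with 1 irradiated and 1 control array.

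Versican, the product of Vcan, is a large chondroitin sulphate proteoglycan that binds hyaluronan. Decorin (Dcn), biglycan (Bgn), lumican (Lum), fibromodulin (Fmod), osteoglycin (Ogn) and osteomodulin (Omd) are small leucine-rich repeat proteins, most of which bind collagen and steer how its fibrils assemble. Periostin (Postn) and SPARC are matricellular proteins, which tune how cells meet the matrix, and fibronectin (Fn1) is the adhesive glycoprotein that cells grip through integrins and assemble into fibrils.

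In the RefSeq annotation of assembly GRCm38.p6, several of the small leucine-rich genes are neighbours among protein-coding genes. On chromosome 10 Lum follows Dcn, on chromosome 13 Ogn follows Omd, which follows the related gene Aspn, and on chromosome 1 Fmod follows Prelp. The promoter windows of 3 members whose brightest probe set was higher in irradiated cells in every experiment are shown because they carried a match to a searched motif. They run 250 bases before to 50 after the annotated start, 5′ to 3′, from RefSeq in the build GRCm38.p6. Capitals mark matches, on either strand, to the TATA box (TATAAA), the CCAAT box (CCAAT), the GC box (GGGCGG), the cAMP response element (TGACGTCA) or its core (TGACG, which the full element contains), the AP-1 motif (TGANTCA) or the TEAD motif (GGAATG).
Vcan promoter, chr13:89742463-89742762, minus strand: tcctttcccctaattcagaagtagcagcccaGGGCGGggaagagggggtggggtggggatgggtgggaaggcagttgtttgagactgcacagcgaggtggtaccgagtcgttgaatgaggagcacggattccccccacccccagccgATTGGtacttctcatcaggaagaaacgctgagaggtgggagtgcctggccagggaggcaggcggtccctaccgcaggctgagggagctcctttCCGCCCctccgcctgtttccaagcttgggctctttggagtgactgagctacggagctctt
Ogn promoter, chr13:49607765-49608064, plus strand: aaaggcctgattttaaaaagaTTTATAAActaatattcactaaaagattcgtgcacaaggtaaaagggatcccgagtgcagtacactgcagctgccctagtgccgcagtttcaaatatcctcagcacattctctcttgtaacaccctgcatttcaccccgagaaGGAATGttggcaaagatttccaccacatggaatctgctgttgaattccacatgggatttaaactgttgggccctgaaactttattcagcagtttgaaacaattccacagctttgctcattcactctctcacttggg
Fmod promoter, chr1:134037004-134037303, plus strand: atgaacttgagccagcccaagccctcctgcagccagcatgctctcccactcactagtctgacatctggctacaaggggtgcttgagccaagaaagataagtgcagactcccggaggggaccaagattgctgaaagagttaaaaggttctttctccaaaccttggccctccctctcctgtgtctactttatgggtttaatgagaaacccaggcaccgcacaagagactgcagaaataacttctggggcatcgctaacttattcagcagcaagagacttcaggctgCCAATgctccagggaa

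The promoter table held 8 windows for 7 of the members, and positions are counted from the annotated start as 1. The Vcan window has a CCAAT box in reverse orientation from -103 to -99 and GC boxes from -219 to -214 and from -10 to -5. The Ogn window has overlapping TATA motifs on the 2 strands between -229 and -222 and a TEAD motif from -86 to -81, and the Fmod window has its CCAAT match inside the transcribed part, from 35 to 39. A CCAAT match was found in 3 of the 8 member windows and in 37.4% of all 32851 windows of that length, a GC box in 2 and in 35.7%, a TATA motif in 2 and in 13.6%, and the TEAD motif in 1 and in 14.7%. None of the 8 windows held TGACGTCA, TGACG or TGANTCA, which were present in 1.79%, 20.8% and 7.81% of all windows. These letter matches are a description of the windows.

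Levels are the deposited log2 values of single probe sets. The 10 genes are described by their brightest probe set, the one with the highest mean over the 6 arrays, and the other probe sets follow. Array medians lay between 4.74 and 4.80 and array maxima between 14.41 and 14.53, above the highest member value of 13.17. Of 14 stromal markers 13 were measured and 12 reached a mean of 6 in a group, among them Col1a2, Col3a1 and Prrx1, while Thy1 did not. Of 12 fat cell markers 10 were measured and 9 reached it. Of 10 endothelial markers 1 did, Eng, which is also on the stromal list. Of 10 chondrocyte and bone markers 8 were measured and 4 reached it, among them Ibsp and Alpl, while Col2a1, Acan, Col10a1 and Sp7 did not. All 18 macrophage markers reached it as well, among them Lyz2, Ctss and Csf1r, although the labels name the cells mesenchymal stem cells alone. The irradiated array of experiment 3 stood apart in its spiked-in hybridisation controls, with a mean of 11.73 against 11.23 on its own control array, so values without experiment 3 are given beside several differences.

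No member passed the test of irradiated against control cells. In limma, fitted with a term for the experiment and adjusted by Benjamini-Hochberg across the 45037 probe sets, 0 of 10 members had an adjusted p under 0.05, as did 0% of all probe sets, and adjusted p ran from 0.62 to 0.896 over the 10. At an unadjusted p under 0.05 there were 0 members, against 10.8% of the 9302 expressed genes, those with a mean of at least 6 in a group. The mean log2 difference, irradiated minus control, was above 0 for 9 of 10 members, against 51.4% of expressed genes, and Postn was the exception. In 5 members, Vcan, Dcn, Fmod, Ogn and Sparc, it was above 0 in all 3 experiments, against 18.6% of expressed genes. The member median was 0.12, with 0.23, 0.09 and 0.06 in experiments 1, 2 and 3, against a median of 0.00 over expressed genes. These counts and medians are a description, since the members were chosen with earlier results of these data known and share arrays.

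Vcan, which encodes the hyaluronan-binding versican, had the widest difference among the brightest probe sets. Its brightest probe set, 1427256_at, read 11.40, 11.15 and 10.64 in irradiated cells of experiments 1 to 3, against 11.04, 10.74 and 10.61 in their controls. Irradiated cells were higher within each experiment, but by little in experiment 3, and the groups overlapped, with both arrays of experiment 3 below the others. The mean was 11.06 ± 0.39 (SD, n = 3) in irradiated cells and 10.80 ± 0.22 (SD, n = 3) in controls, a 1.20-fold difference of 0.27 ± 0.11 (SE) with a limma adjusted p of 0.62 and an unadjusted p of 0.0544. The 95% interval ran from -0.01 to 0.54, and without experiment 3 the difference was 0.39 (limma adjusted p = 0.593). It was 0.22 without experiment 1 and 0.20 without experiment 2.

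Its other 2 probe sets above the level of 6 had mean differences near 0. The probe set 1421694_a_at read 10.96, 10.64 and 10.01 in irradiated cells, against 10.67, 10.50 and 10.30 in controls, differences of 0.29, 0.14 and -0.29. Its mean difference was 0.05, and 0.21 without experiment 3 (limma adjusted p = 0.602). Of the 3 Vcan probe sets above 6, 1421694_a_at alone is annotated to a transcript in the RefSeq annotation used here. The third, 1427257_at, differed by -0.04, 0.06 and -0.05, a mean with a 95% interval from -0.24 to 0.22. Within arrays, the brightest probe set moved more than these by 0.22 ± 0.13 (SD, n = 3 pairs) and by 0.28 ± 0.17 (SD, n = 3 pairs), each with p = 0.25 in an exact permutation of signs (two-sided), the lowest value 3 pairs can give. The other 5 Vcan probe sets lay below 4 on every array and bear little on the gene. With all probe sets of a gene averaged, the Vcan difference was 0.09 (limma adjusted p = 0.803).

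Among the small leucine-rich members, the neighbours Ogn and Omd had the same mean difference on their brightest probe sets, 0.16, but differed by experiment. Ogn read 12.83, 12.54 and 12.53 in irradiated cells, against 12.61, 12.44 and 12.36 in controls, a difference of 0.16 ± 0.09 (SE). Its second probe set, 1419662_at, read 12.61, 12.44 and 11.94 in irradiated cells, against 12.28, 12.01 and 11.84 in controls. Both probe sets were higher in irradiated cells in all 3 experiments, and the groups overlapped in both. The second differed by 0.29 ± 0.11 (SE), with a limma adjusted p of 0.593 and an unadjusted p of 0.0343, which was 0.17 without the experiment block and 0.0901 with a random one. Averaged over both probe sets, the Ogn difference was 0.23, with a limma adjusted p of 0.589. Omd read 9.29, 8.97 and 8.78 in irradiated cells, against 8.94, 8.79 and 8.82 in controls. Irradiated cells were thus higher in experiments 1 and 2 and lower by 0.04 in experiment 3. The mean Omd difference of 0.16 ± 0.11 (SE) was 0.27 without experiment 3, 0.15 without experiment 2 and 0.07 without experiment 1. Their neighbour Aspn, which encodes asporin, differed by 0.43, 0.03 and -0.23, and Ecm2, beyond it, was dim at 2.75 in irradiated cells and 2.66 in controls.

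Dcn, whose product coats collagen fibrils and binds TGF-beta, read 11.07, 10.81 and 10.60 in irradiated cells, against 10.84, 10.77 and 10.45 in controls. The difference of 0.14 ± 0.10 (SE) was above 0 in all 3 experiments, with a 95% interval from -0.09 to 0.37 that spans 0. A second Dcn probe set lay near 3.20 in both groups and gave no usable reading. Lum, its neighbour on chromosome 10, behaved otherwise, with 9.21, 9.17 and 9.64 in irradiated cells against 8.91, 9.36 and 9.50 in controls. Experiment 2 ran opposite to the others, and the mean difference of 0.08 became -0.03 without experiment 1. Kera and Epyc, the related genes beyond Lum, were dim, at 2.87 and 2.40 in irradiated cells against 2.89 and 2.30 in controls.

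Bgn, the closest relative of Dcn, read 12.71, 12.27 and 12.02 in irradiated cells, against 12.63, 12.17 and 12.02 in controls, a difference of 0.06 with a 95% interval from -0.17 to 0.29. Its other 2 probe sets differed by 0.12 and 0.15 and were higher in irradiated cells in all 3 experiments. Fmod, which binds collagen at a site shared with lumican, read 11.62, 11.36 and 11.37 in irradiated cells, against 11.29, 11.32 and 11.33 in controls. All 3 irradiated arrays lay above all 3 controls, which held for 5.34% of expressed genes, but 2 of the pairs were 0.04 apart. The 6 Fmod probe sets had mean differences between 0.03 and 0.14, and 4 of them were lower in irradiated cells in experiment 2. Of the 6, 5 are of the type whose probes may also match other transcripts, and the brightest, 1456084_x_at, is among them. The remaining one, 1415939_at, differed by 0.18, -0.14 and 0.06, a mean of 0.03.

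**Figure D1:**
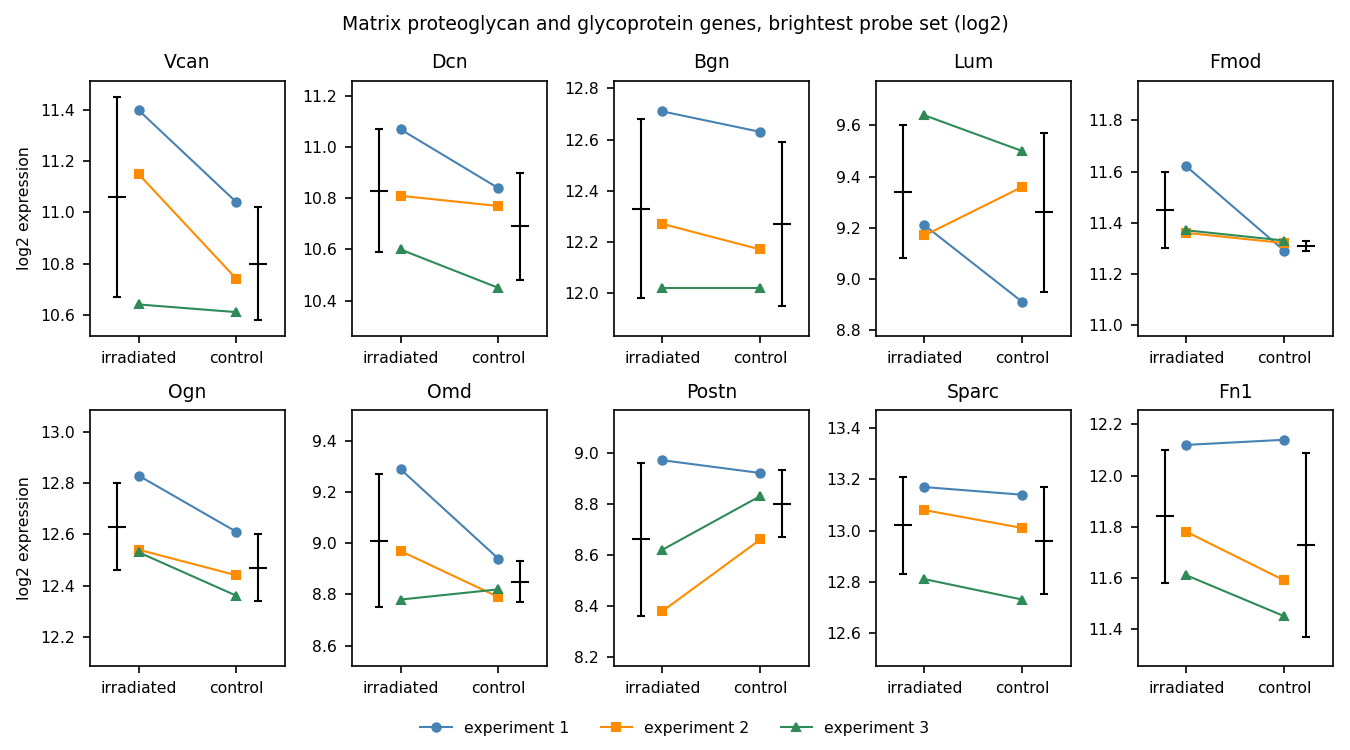
Log2 expression (vertical axis, the same span in every panel) of the brightest probe set of each of the 10 genes in irradiated and control cells, with a line for each experiment and black bars for the group mean ± SD (n = 3 each). The lines lie apart by experiment in most panels, and the groups overlap in every gene but Fmod.

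Among the matricellular and adhesive members, Postn was the single one with a lower mean. It read 8.97, 8.38 and 8.62 in irradiated cells, against 8.92, 8.66 and 8.83 in controls, a difference of -0.15 ± 0.11 (SE) with a limma adjusted p of 0.752. Experiment 1 ran the other way, by 0.05. Sparc, which binds collagen and calcium, read 13.17, 13.08 and 12.81 in irradiated cells, against 13.14, 13.01 and 12.73 in controls, differences of 0.03, 0.07 and 0.08. A second Sparc probe set, 1448392_at, differed by 0.09, 0.12 and 0.20, and a dim one at 5.50 in irradiated cells and 5.58 in controls by -0.08. The 95% intervals were -0.16 to 0.28 for the brightest Sparc probe set and -0.41 to 0.11 for Postn.

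Fibronectin gave 2 unlike readings. The brightest Fn1 probe set, 1426642_at, read 12.12, 11.78 and 11.61 in irradiated cells, against 12.14, 11.59 and 11.45 in controls, a difference of 0.11 ± 0.10 (SE). The dimmer probe set 1437218_at read 6.94, 6.16 and 6.72 in irradiated cells, against 6.05, 5.70 and 5.24 in controls. On it every irradiated array lay above every control array, which held for 4.53% of all probe sets. The mean was 6.61 ± 0.40 (SD, n = 3) in irradiated cells and 5.66 ± 0.41 (SD, n = 3) in controls, a 1.92-fold difference of 0.94 ± 0.19 (SE) with an unadjusted limma p of 0.0019 and an adjusted p of 0.53.

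The 2 Fn1 probe sets moved apart by 0.91, 0.27 and 1.32, on average 0.83 ± 0.53 (SD, n = 3 pairs) with p = 0.25 in the same exact permutation test. The dimmer probe set passed the level of 6 only through its irradiated mean, and it is annotated to an accession that is not among the RefSeq transcripts of the table used here. The accession of the brighter probe set is not among them either. Which part of the fibronectin transcript each reads was not tested. Without experiment 3 the difference of the dimmer probe set was 0.68, and with both probe sets averaged the Fn1 difference was 0.53 (limma adjusted p = 0.517), against 0.11 for the brightest alone. Over all 29 member probe sets, 2 had an unadjusted p under 0.05 and both were higher in irradiated cells, Ogn 1419662_at and Fn1 1437218_at, against 8.06% of all probe sets in either direction.

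**Figure D2:**
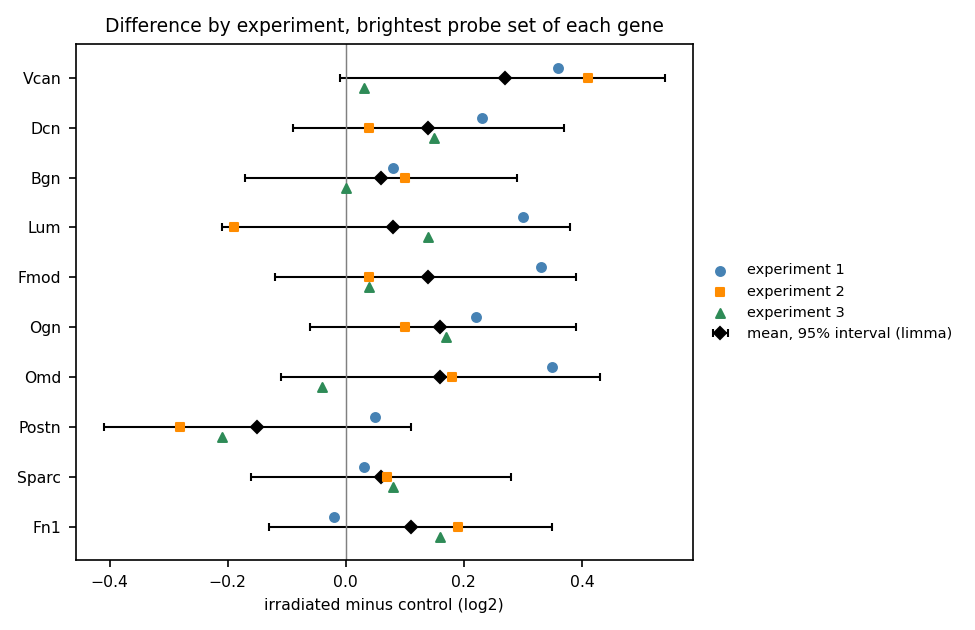
Log2 difference, irradiated minus control (horizontal axis), of the brightest probe set of each gene, with coloured symbols for the 3 experiments and black diamonds for the mean with its 95% limma interval. Every interval spans 0, from -0.01 to 0.54 for Vcan and -0.41 to 0.11 for Postn.

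**Figure D3:**
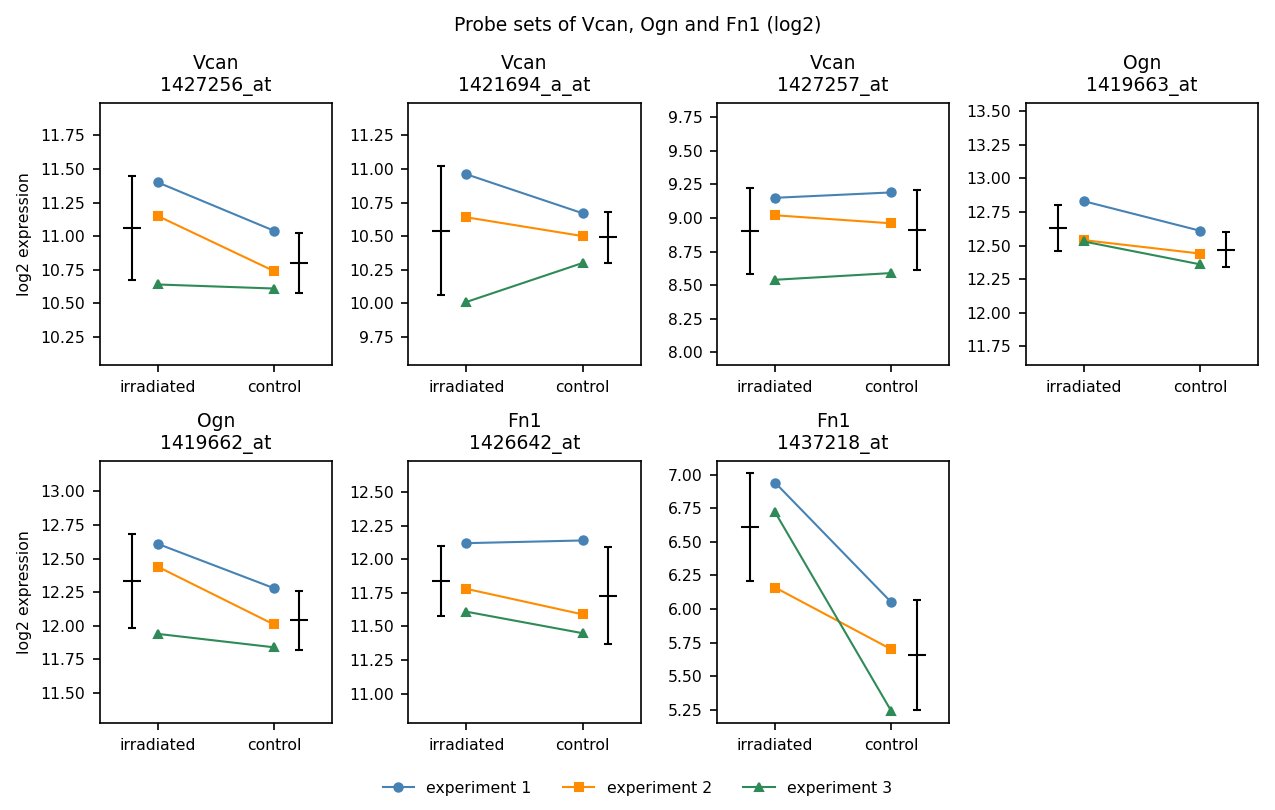
Log2 expression (vertical axis, the same span in every panel) of 7 probe sets of Vcan, Ogn and Fn1 in irradiated and control cells, with a line for each experiment and black bars for the group mean ± SD (n = 3 each). The Fn1 probe set 1437218_at averages 6.61 in irradiated and 5.66 in control cells with no overlap, whereas 1426642_at averages 11.84 in irradiated and 11.73 in control cells with overlap.

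Member levels also varied between the experiments, although no member passed adjustment in the test of that difference. For 9 of 10 members the mean of the 2 arrays was highest in experiment 1, against 51% of expressed genes, and for 7 of them, Vcan, Dcn, Bgn, Ogn, Omd, Sparc and Fn1, it was lowest in experiment 3, a pattern of 31.9% of expressed genes. Bgn averaged 12.67, 12.22 and 12.02 in experiments 1, 2 and 3, and Fn1 averaged 12.13, 11.68 and 11.53. Lum lay the other way, at 9.06, 9.27 and 9.57, and Fmod averaged 11.45, 11.34 and 11.35, with its control arrays lowest in experiment 1. The gap between the highest and the lowest experiment had a median of 0.43 over the members, against 0.22 over expressed genes.

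By the moderated F test of the experiment term in the same limma fit, 7 of 10 members had an unadjusted p under 0.05, against 18.3% of expressed genes, and none passed adjustment over all probe sets, of which 0.00444% did. The smallest F unadjusted p were 0.00276 for Bgn and 0.00528 for Fn1, with limma adjusted p of 0.143 and 0.169. With an intensity trend and a robust prior, 3 members passed, Bgn (adjusted p = 0.0147), Fn1 (adjusted p = 0.0255) and Sparc (adjusted p = 0.0384). Nothing in the labels says how the cultures of the 3 experiments differed. Their arrays did differ in 3′ minus 5′ signal, the log2 gap between readings toward opposite ends of a transcript. This gap was read from the array control probe sets for Gapdh and beta-actin alone. In experiment 1 it was 0.19 on the irradiated and 0.195 on the control array, and in experiment 2 it was 0.25 and 0.275. In experiment 3 it was 0.385 and 0.375. The part of this measure in the member levels was not tested.

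Macrophage markers also varied between the experiments. Averaged over the 18 markers and taken against their own mean, they lay at -0.43, 0.14 and 0.30 in experiments 1, 2 and 3, so they were lowest where 9 of the members were highest, while Lum moved with them. Their summed level on the linear scale ran from 63200 to 98000 in irradiated cells and from 72100 to 110000 in controls, with irradiated to control ratios of 0.877, 0.986 and 0.893 in the 3 experiments. Their median log2 difference, irradiated minus control, was -0.22, 0.06 and -0.12 in experiments 1, 2 and 3, so it was below 0 in experiments 1 and 3 but not in experiment 2. Over the 3 experiments the mean difference was below 0 for 17 of the 18, against 4524 of the 9302 expressed genes. In 7 of the 18 it was below 0 in all 3 experiments, against 1744 of those genes. Of the 18, 1 was lower at an unadjusted limma p under 0.05, against 584 of the expressed genes, and 0 passed adjustment. The 18 share arrays, so these counts are a description. Stromal markers had ratios of 1.05, 1.06 and 0.978. In bulk cultures fewer cells of a type and less RNA per cell cannot be told apart, and the part of the macrophage markers in the member values was not tested.

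**Figure D4:**
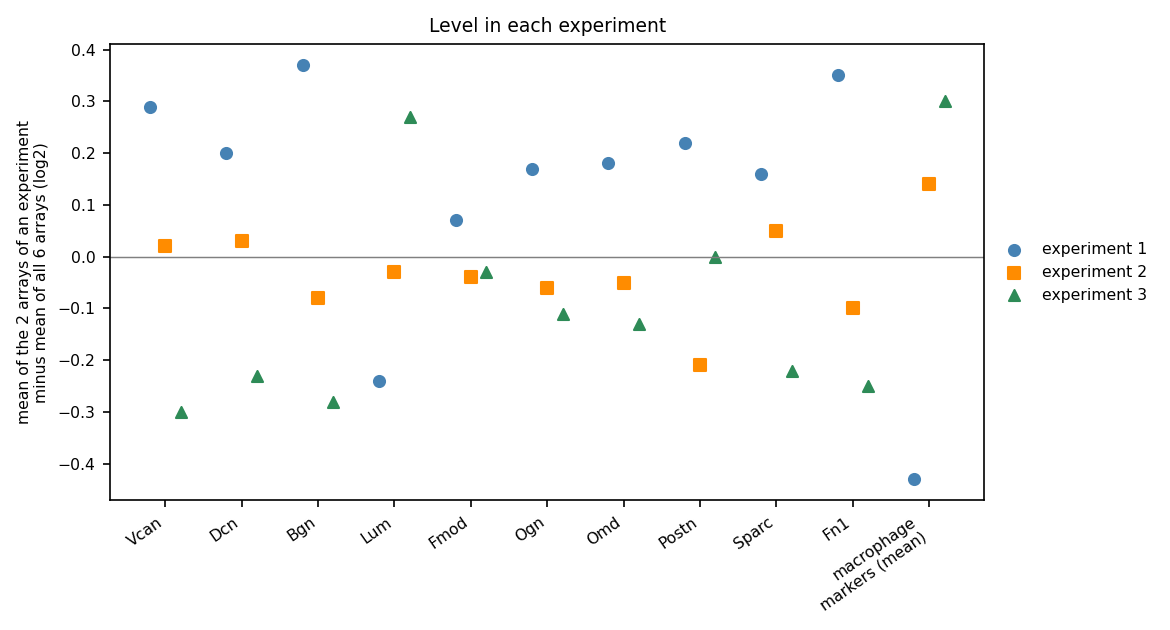
Level of each member's brightest probe set, and the mean of 18 macrophage markers, in each experiment, as the mean of its irradiated and control array minus the mean of all 6 arrays (vertical axis, log2). Bgn lies at 0.37, -0.08 and -0.28 in experiments 1, 2 and 3, and the macrophage markers at -0.43, 0.14 and 0.30.

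Genes that make, cleave or bind these proteins, and other proteoglycans and glycoproteins, were read from 5 further lists. None of the listed genes passed adjustment over all probe sets. Counts below are at an unadjusted limma p under 0.05, which held for 3.7% of all 18193 genes in the higher and 4.61% in the lower direction. The widest statistics belonged to proteases that cut versican. Of 19 genes of matrix cleavage, all measured, 2 were higher and 1 lower, with a median difference of 0.06 against 0.01 over all genes.

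Adamts1, a versican-cleaving protease, read 10.56, 10.56 and 10.58 in irradiated cells, against 10.16, 10.15 and 10.01 in controls. Adamts5, an aggrecan- and versican-cleaving protease of the same family, read 10.27, 9.60 and 9.54 in irradiated cells, against 9.71, 9.23 and 9.10 in controls. For Adamts1 all irradiated arrays lay above all controls, as in 5.34% of expressed genes, and for Adamts5 the control of experiment 1 lay above 2 irradiated arrays. The differences were 0.46 ± 0.10 (SE) for Adamts1 and 0.46 ± 0.10 (SE) for Adamts5, each with a limma adjusted p of 0.53. Mmp3, stromelysin, differed by -0.36, and Adamts15, another versican-cleaving member, by 0.76, 1.22 and -0.42 in the 3 experiments. The Adamts15 average was 0.52, or 0.99 with experiment 3 omitted.

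Of 30 genes of glycosaminoglycan synthesis 29 were measured, 2 were higher and 2 lower, and the median was 0.08. Has2, the hyaluronan synthase whose product versican binds, read 10.06, 9.28 and 9.84 in irradiated cells, against 9.62, 8.97 and 8.40 in controls. The difference of 0.73 ± 0.22 (SE), with a limma adjusted p of 0.558, was above 0 in all 3 experiments and became 0.37 without experiment 3. Xylt2, which adds the first sugar of the chain to proteoglycan cores, differed by 0.40, 0.34 and 0.19, while Csgalnact2, which starts chondroitin chains, differed by -0.42, -0.13 and -0.39. Chst11, a chondroitin sulphotransferase, differed by 0.24 ± 0.10 (SE).

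Among 22 receptors and ligands, all measured, 3 were higher and 1 lower, with a median of 0.07. Tgfb2, a TGF-beta isoform, read 8.23, 8.07 and 7.91 in irradiated cells, against 8.00, 7.54 and 7.38 in controls, a difference of 0.43 ± 0.11 (SE) with a limma adjusted p of 0.538. Tgfb1 ran the other way, by -0.44, -0.01 and -0.43. Itga8, an integrin subunit that binds fibronectin and other matrix ligands, differed by 0.34 ± 0.11 (SE). Bmp4, a growth factor that biglycan can bind, differed by 0.54, 0.04 and 1.25, a mean of 0.61 that was 0.29 without experiment 3.

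Of 37 other proteoglycan genes 35 were measured, 1 was higher and 0 lower, with a median of 0.03. That gene was Prg4, lubricin, which differed by 0.62, 0.32 and 0.05. The glypican Gpc4 differed by 0.17 and Tgfbr3, the TGF-beta co-receptor betaglycan, by 0.16, or 0.31 without experiment 3. Srgn, the serglycin of blood cell granules, differed by -0.20, or -0.07 without experiment 3, and was lowest in experiment 1, as the macrophage markers were. Of 48 other glycoproteins 45 were measured, 3 were higher and 2 lower, with a median of 0.06. For Ccn2, which encodes connective tissue growth factor, experiment 3 dominated the mean difference of 1.06, which was 0.49 without it. Thbs2, a thrombospondin, differed by 0.27, Ccn3 by 0.30 and Ibsp, bone sialoprotein, by -0.34, or -0.20 without experiment 3. Like Srgn, Ibsp and Tgfb1 were lowest in experiment 1 and highest in experiment 3.

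**Figure D5:**
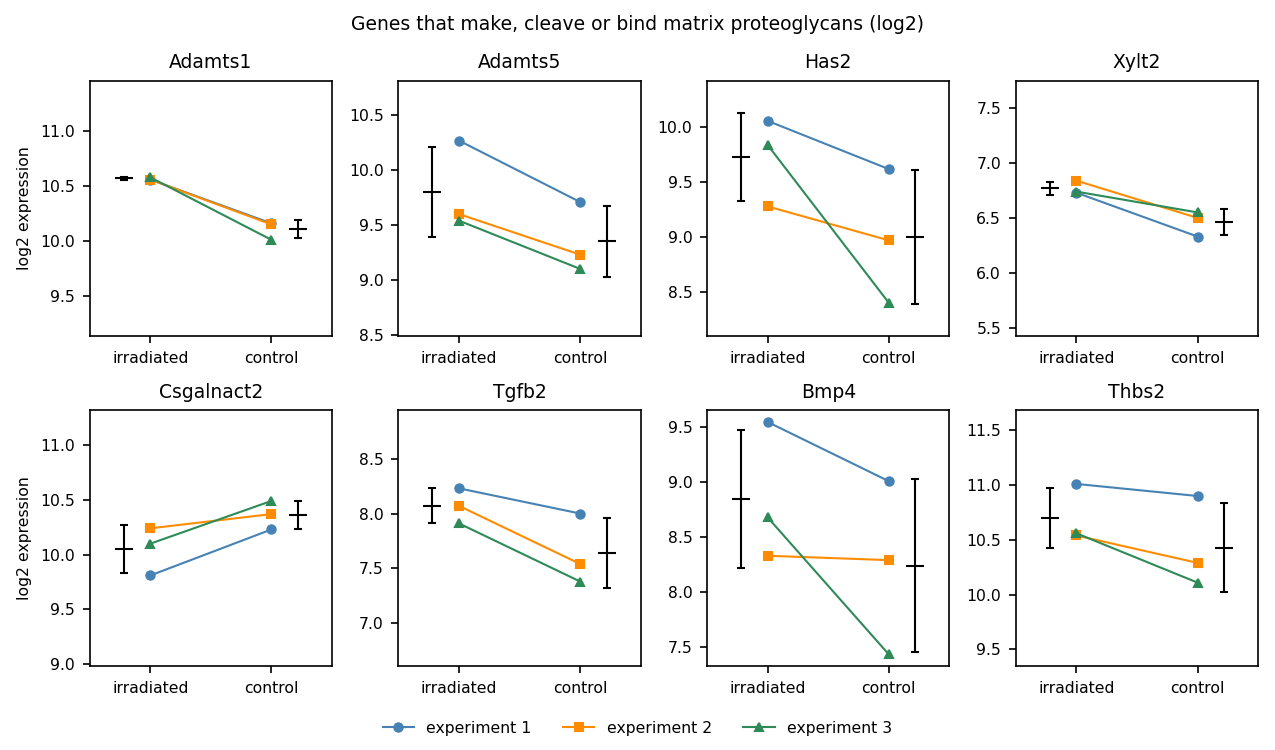
Log2 expression (vertical axis, the same span in every panel) of 8 genes from the further lists in irradiated and control cells. They make, cleave or bind matrix proteoglycans, except Thbs2, which came from the glycoprotein list. Each experiment has a line, and black bars give the group mean ± SD (n = 3 each). Adamts1 differs by 0.40, 0.41 and 0.57 in the 3 experiments, Csgalnact2 runs the other way, and Has2 and Bmp4 differ most in experiment 3.

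The expressed genes whose levels over the 6 arrays were most like those of Vcan, which had the largest moderated statistic among the members' brightest probe sets, were Agpat4 (Pearson r = 0.9980), 2210016F16Rik (r = 0.9943) and Scaf4 (r = 0.9895). Of 9292 genes searched, 316 had r above 0.9. The 6 arrays share experiments in pairs, so these values are a description.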

How the data were processed

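The table deposited by the authors holds log2 values for each probe set, with 2 decimals. RMA and the affy package, with limma beside them, are named per the submitters' processing notes. Versions, genome build and background step are not given there. Of 45101 probe sets, 64 array controls were left out. Probe sets were named by the platform annotation supplied with the table, and 34945 carried 1 symbol. The groups were tested with limma 3.58.1 under R 4.3.3 (lmFit, eBayes, two-sided, Benjamini-Hochberg adjustment over 45037 probe sets at 0.05), with the experiment as a block because the design text pairs each irradiated culture with its adjacent control. Deviations from the group means correlated at 0.562, 0.0343 and 0.258 within the pairs of experiments 1, 2 and 3. Between unlike experiments they ran from -0.49 to 0.299. The highest of these, irradiated 2 with control 3, lay above the pairs of experiments 2 and 3, so the block was kept on the strength of that text alone. Residual degrees of freedom were 2 and prior ones 4.52. Members and lists were chosen with earlier results of these data known. From each list up to 4 expressed genes with the largest statistic were named, and from marker lists up to 3 of the highest mean. List symbols were matched through gene identifiers. As alternatives, the block was dropped or made random, single experiments or dim probe sets were omitted, arrays were quantile normalized or centred on their medians, eBayes was run with a trend and robust prior, and probe sets of a gene were averaged. Python 3.11.15 with matplotlib 3.10.9 drew the figures. The number of arrays limits the precision.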

Additional observations from a re-analysis of the deposited data

Results flagged for a closer look

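The spiked-in hybridisation controls, 18 probe sets used in no comparison, had a mean of 11.73 on the irradiated array of experiment 3, above all 3 control arrays. The irradiated minus control difference of these controls was 0.50 in experiment 3, against 0.08 in experiment 1 and -0.03 in experiment 2. Fn1 1437218_at, Has2, Bmp4 and Ccn2 also differed most in experiment 3. In each, the control array of experiment 3 read lowest of all 6 arrays, at 5.24, 8.40, 7.43 and 10.31. The irradiated array of experiment 3 lay below that of experiment 1 in each. The part of the brighter spiked-in controls in those values was not tested.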

How the results depend on the processing

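No member passed an adjusted p of 0.05 in limma under any of 10 alternatives. Of 100 member values 99 kept their sign, but for several alternatives the sign could not change. Dropping the block, making it random, omitting dim probe sets and the trend and robust prior all leave the mean difference as it is. Lum ranged from -0.03 to 0.22 with each experiment left out. So did Vcan 1421694_a_at from -0.08 to 0.21, Vcan 1427257_at from -0.05 to 0.01, Fmod 1415939_at from -0.04 to 0.12 and Fmod 1437324_x_at from -0.02 to 0.18, all of which changed sign. Probe sets with an adjusted p under 0.05 numbered 0 in the main setting and 2 with the experiment as a random replicate block. At an unadjusted p under 0.05 there were 3631, against 2168 without the replicate block, 2260 of 16431 with dim probe sets left out, 1478 of 18193 with probe sets averaged, and 1692 to 3748 with each experiment left out. Members higher at an unadjusted p under 0.05 numbered 0 in the main setting, 0 to 1 with each experiment left out, 1 with dim probe sets left out, 1 with quantile normalization, 2 with an intensity trend and robust prior (Vcan and Ogn) and 2 with probe sets averaged (Ogn and Fn1). Between experiments, probe sets with an F adjusted p under 0.05 numbered 2 in the main setting, 203 with dim probe sets left out, 716 with the trend and robust prior and 8 with probe sets averaged, and members numbered 0, or 3 with the trend and robust prior. The cause of these moves was not tested. Where features or samples were left out or averaged, their number was also smaller. No member was called with or without the replicate block, but the unadjusted limma p of Ogn 1419662_at was 0.17 without it, 0.0901 with a random replicate block and 0.0343 with it. With 3 pairs and 2 residual degrees of freedom, differences as small as those of most members could be missed.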
